A study of Mus musculus with 4 samples.

Results

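The Ifitm family is described here through 5 of the 32285 genes in the count matrix, Ifitm1, Ifitm2, Ifitm3, Ifitm6 and Ifitm10. The genes were selected on measured values of these same cells, in which Ifitm1 and Ifitm6 stood out among macrophage- and monocyte-like cells, so their differences there between treatments are given as a description. All 5 were found in the matrix, and 302649 unique molecular identifiers (UMIs, each counting 1 captured RNA molecule) of Ifitm1, 203563 of Ifitm2, 449970 of Ifitm3, 20490 of Ifitm6 and 1958 of Ifitm10 were counted in the cells kept. They were followed across macrophage, monocyte, neutrophil and T cell subsets, with dendritic-like and natural killer (NK)-like cells for comparison.

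The cells were CD45+ leukocytes sorted live from dissociated subcutaneous tumours of KPC cells, a mouse pancreatic cancer line, grown in young adult male C57BL/6 mice. There were 4 libraries, 1 for each treatment: untreated, STING agonist (ADU-S100, a cyclic dinucleotide that activates the DNA-sensing adaptor STING, injected into the tumour), LTbR agonist (an antibody, 4H8, that activates the lymphotoxin beta receptor, given intraperitoneally), and the combination of both. The STING agonist was given once, at the start of treatment, and the LTbR agonist repeatedly over the following days. Tumours were taken days after the last dose, so early responses to either agonist were not sampled. Each library held pooled tumours of 1 treatment group, so no spread between animals can be measured. Every interval below covers counting error only, and no p-value is given. The tumours came from 1 transplanted line under the skin, not from the pancreas, and all 4 groups share that model.

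IFITM proteins are small membrane proteins of the cell surface and of endosomes that hinder the fusion of enveloped viruses with host membranes. IFITM3 is the best known of them, and Ifitm1, Ifitm2, Ifitm3 and Ifitm6 are classed with the genes induced by interferon. Interferons signal through JAK kinases to transcription factors that bind the interferon-stimulated response element (ISRE) or the gamma-activated site (GAS) in the genes they induce. STING is itself an inducer of type I interferon, while LTbR acts mainly through NF-kB. Ifitm10 is a divergent member of the family and is not known as an interferon-induced gene.

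In the GRCm38 annotation 4 members lie together on chromosome 7 within 63.1 kb: Ifitm2 at chr7:140954837-140955987 on the minus strand, Ifitm1 at chr7:140967221-140969825 on the plus strand, Ifitm3 at chr7:141009586-141010770 and Ifitm6 at chr7:141015699-141017924, both on the minus strand. Ifitm10 is at chr7:142325837-142373753 on the minus strand, 1308 kb further along. Windows from 250 bases before to 50 bases after each RefSeq start were searched on both strands for ISRE-like letters (GAAANNGAAA) and GAS-like letters (TTCNNNGAA). RefSeq starts are not always the outer ends of the genes given above. The windows of Ifitm1 (chr7:140967826-140968125) and Ifitm6 (chr7:141016843-141017142) lie inside those genes. The outer ends of these 2 were therefore not searched, and every start below is the RefSeq start. The stretches of Ifitm2, Ifitm3 and Ifitm6 below are shown for their matches, and that of Ifitm1 because it is the member with the largest differences below. They are read on the strand of the gene in GRCm38.p6, and capitals mark the ISRE-like letters in Ifitm2 and Ifitm3 and the GAS-like letters in Ifitm6.
Ifitm2, chr7:140955978-140956007, minus strand: GAAAAGGAAAttgctagagaaagggcgggt
Ifitm3, chr7:141010713-141010742, minus strand: GAAAAGGAAActtctgaGAAACCGAAActg
Ifitm6, chr7:141016883-141016912, minus strand: ccatatgaacTTCCTTGAAacaagagcttc
Ifitm1, chr7:140967928-140968027, plus strand: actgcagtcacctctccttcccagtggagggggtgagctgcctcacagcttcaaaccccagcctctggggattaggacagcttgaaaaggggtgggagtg
Ifitm2 had 1 ISRE-like match, 46 bases before its start. Ifitm3 had 2 ISRE-like matches, 2 and 19 bases after its start, and a GAS-like match, TTCTGAGAA, 13 bases after the start, whose last letters overlap the second ISRE-like match and which is not marked above. Ifitm6 had a GAS-like match 10 bases before its start and no ISRE-like match. The Ifitm1 window and the 3 windows of Ifitm10 held neither, and the stretch of Ifitm1 printed above is the part of its window from 148 bases before the start that is clear of annotated exons. Of 32851 such windows, 3.44% held the ISRE-like letters, 0.225% held them at least 2 times and 8.30% held the GAS-like letters. A match is a description of the letters and not a binding site.

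After removing cells with under 300 or over 5000 genes or over 6% mitochondrial UMIs, 23011 of 24839 barcodes were kept (3748 to 7147 per library), with a median of 5750 to 7094 UMIs per cell. The share of cells over the mitochondrial limit was 2.68% to 2.71% without LTbR agonist and 5.99% to 6.78% with it. Pairs of libraries shared 33 to 61 barcodes, at most 1.04% of the smaller library. Clusters were made without the Ifitm genes, so that the members did not define the groups in which they are compared. The macrophage- or monocyte-like class held 2971, 1418, 2891 and 1825 cells in the untreated, STING agonist, LTbR agonist and combination libraries, the neutrophil-like class 198, 279, 301 and 56, and the T-like class 1577, 1170, 1915 and 1884. Cells left without a class were 1063, 471, 853 and 476 in the same order, or 15.7%, 12.6%, 11.9% and 8.93% of the cells kept. They enter no value of the classes made from clusters. Among them is a cluster of 510 cells whose nearest marker list was macrophage or monocyte. In every library, all 11 macrophage or monocyte markers, all 8 neutrophil markers and all 8 T cell markers were above 0 in the class they define. Levels are UMI counts scaled to the UMI total of the class or subset, in CPM.

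Each member had its own distribution over 20 cell subsets, and the subset with the highest level differed between members. Macrophage- or monocyte-like sub-clusters that could not be named, of 1253, 694, 655, 413 and 308 cells, are not among these subsets. An unnamed T-like sub-cluster of 87 cells is also left out, so the ranks below hold among the ranked subsets only. Ifitm1 was highest in dendritic-like cells at 6044 CPM with libraries pooled, followed by neutrophil-like cells at 3423 CPM (95% Poisson interval 3340 to 3507) and C1q Trem2 macrophage-like cells at 3353 CPM (3327 to 3379), the intervals of the last 2 overlapping. In single libraries these 2 differed in opposite directions, at 2246 against 4168 CPM untreated and 5419 against 1763 CPM with LTbR agonist. Cxcl9 monocyte-derived-like cells, named for a chemokine that attracts CXCR3-bearing T cells, followed at 1766 CPM and heat shock gene-rich macrophage-like cells at 1327 CPM. Among lymphocytes the highest Ifitm1 level was in CD8 cells with granzymes C to F at 758 CPM. Ly6c2 monocyte-like cells at 218 CPM, CD4 helper-like cells at 212 CPM, exhausted CD8-like cells at 210 CPM and B or plasma-like cells at 205 CPM overlapped in their intervals. The lowest levels were in IL-17-type gamma-delta T cells at 15.7 CPM (25 UMIs) and naive-like T cells at 9.56 CPM (6 UMIs).

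Ifitm2 and Ifitm3 had a myeloid distribution that, unlike that of Ifitm1, included monocytes. Ifitm2 was highest in neutrophil-like cells at 3292 CPM, then in dendritic-like cells at 2629 CPM and in Ly6c2 monocyte-like cells at 1956 CPM. Ifitm3 was highest in Cxcl9 monocyte-derived-like cells at 5057 CPM and Ly6c2 monocyte-like cells at 5028 CPM, whose intervals overlapped, and C1q Trem2 macrophage-like cells followed at 4241 CPM. In the same Ly6c2 monocyte-like cells, Ifitm1 stood 10th of the 20 subsets and Ifitm6 stood first. Nonclassical monocyte-like cells, the patrolling Ly6c-low cells of blood vessels, placed 5th for Ifitm3 at 3348 CPM and 16th for Ifitm1 at 82.6 CPM. Per 100 UMIs of Ifitm3 the untreated library held 91.4 UMIs of Ifitm1 in C1q Trem2 macrophage-like cells, 5.59 in Ly6c2 monocyte-like cells and 4.78 in nonclassical monocyte-like cells. The same ratio was 575 in CD8 cells with granzymes C to F and 367 in exhausted CD8-like cells. The balance of the 2 neighbouring genes therefore ran from a large excess of Ifitm3 in monocytes to an excess of Ifitm1 in CD8 cells.

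Ifitm6 was the member most restricted to myeloid cells. It stood at 593 CPM in Ly6c2 monocyte-like cells, at 420 CPM in dendritic-like cells and at 414 CPM in nonclassical monocyte-like cells, the last 2 overlapping, and at 300.2 CPM in neutrophil-like cells. Macrophage-like subsets were lower, from 95.6 CPM in the Cxcl9 subset to 36.4 CPM in the heat shock subset, with C1q Trem2 macrophage-like cells at 55.1 CPM. T and NK subsets held 0 to 12 UMIs of it each. Ifitm10 had nearly the opposite order. It was highest in NK-like cells at 75.8 CPM, then in T cells with Ly49 receptors at 59.9 CPM, in Gzmk memory-like CD8 cells at 43.3 CPM, and in granzyme C to F and exhausted CD8-like cells at 32.6 and 32.3 CPM, which overlapped. Ifitm10 UMIs were found in 30.2% of NK-like cells at a median depth of 4890.5 UMIs and in 0.373% of macrophage- or monocyte-like cells at a median depth of 8708 UMIs. No Ifitm10 UMI was found in 827 Ly6c2 monocyte-like cells, and CD4 helper-like cells stood at 9.91 CPM and regulatory-like T cells at 3.87 CPM. Only 24.4% of the Ly49-receptor T cells had a Cd8a UMI, against 89.6% with a Cd3e UMI and 37.6% with the NK receptor gene Klrb1c, so they are not called CD8 cells here.

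**Figure D1:**
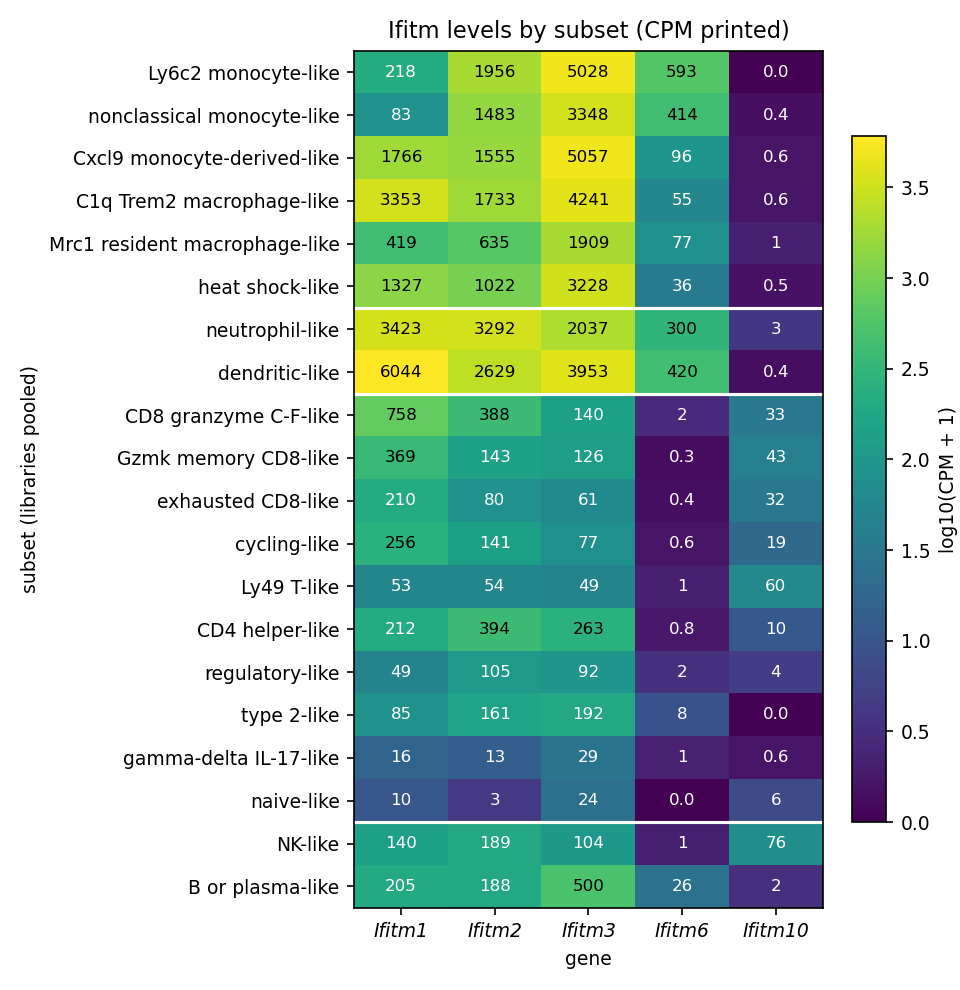
Level of the 5 Ifitm genes in 20 cell subsets with the 4 libraries pooled, coloured by log10 of CPM plus 1 and with the CPM printed in each tile. Unnamed macrophage-, monocyte- and T-like sub-clusters are not drawn. Ifitm1 is highest in dendritic-like cells, Ifitm2 in neutrophil-like cells, Ifitm3 in the Cxcl9 subset, Ifitm6 in Ly6c2 monocyte-like cells and Ifitm10 in NK-like cells.

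The order of subsets was similar in single libraries, with Spearman correlations of 0.81 to 0.99 with the pooled order over 18 to 20 subsets. Over the 20 subsets the order of Ifitm2 was closest to that of Ifitm3 (Spearman rho 0.93), while Ifitm1 had a rho of 0.78 with Ifitm2, 0.69 with Ifitm3 and 0.48 with Ifitm6, and Ifitm10 had a rho of −0.77 with Ifitm6. These are descriptions over subsets that share libraries and depth. Among 9473 genes, those most like Ifitm6 were Mcemp1 (0.96), Csf2ra, a subunit of the GM-CSF receptor (0.95), Mefv, which encodes pyrin (0.94), and Irf5 (0.94). Those most like Ifitm3 were Zeb2os (0.94), Ifitm2 itself (0.93), Ifi211, an interferon-inducible gene of the Ifi200 family (0.91), and the nucleotide receptor P2ry6 (0.91). For Ifitm2 they were Ifitm3, then Taldo1 (0.88), Rogdi (0.88) and Hlx (0.87). The 4 nearest to Ifitm1 had lower correlations than the nearest of the other members and were AA467197, Haus8, Arrb2 (all 0.84) and Ctnnbip1 (0.83). For Ifitm10 they were Mad2l1bp (0.88), Wdr95 (0.87), Crtam, a receptor of cytotoxic lymphocytes (0.86), and Zfp472 (0.86).

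The next comparison asked how the members differed between treatments in macrophage- or monocyte-like cells. Ifitm1 stood at 3045 CPM in the untreated library, 2389 CPM with STING agonist, 1180 CPM with LTbR agonist and 942 CPM with the combination. The level was thus lower in both libraries that received LTbR agonist than in both that did not. As a log2 ratio to untreated, after adding 10 CPM to each level, this was −0.35 (−0.37 to −0.33) with STING agonist, −1.36 (−1.38 to −1.34) with LTbR agonist and −1.68 (−1.71 to −1.66) with the combination.

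Ifitm2 stood at 1886, 1661, 1368 and 1204 CPM in the same order of libraries. Its log2 ratios were −0.18, −0.46 (−0.48 to −0.44) and −0.64 (−0.67 to −0.62), so that it ran in the direction of Ifitm1 with smaller steps. Ifitm3, at 4609, 4068, 3841 and 3703 CPM, varied least, with log2 ratios of −0.18, −0.26 and −0.31. Ifitm6 stood at 140.2, 96.1, 159 and 142 CPM. It was thus lowest with STING agonist (log2 ratio −0.50, interval −0.58 to −0.42), and was not lower in the other 2 treated libraries (0.17, interval 0.11 to 0.23, and 0.02, interval −0.05 to 0.09). Ifitm10 had 18, 2, 9 and 6 UMIs and was too low to compare.

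A gene was counted as differing where its log2 ratio was at least 0.5 in size and where 1 of the 2 libraries held at least 50 UMIs of it in the class. Of the 4 members with enough UMIs, 1 was lower with STING agonist (Ifitm6, where 0.124% of all 10519 genes compared were lower), 1 with LTbR agonist (Ifitm1, against 0.885% of 10729 genes) and 2 with the combination (Ifitm1 and Ifitm2, against 1.61% of 10585 genes). None was higher, where 0.323%, 1.54% and 2.62% of genes were. Because the members were selected on these contrasts, nothing is read from these shares. The difference of Ifitm6 with STING agonist was at the limit and fell short of it with a pseudocount of 50 CPM (−0.38) and with cells thinned to 1000 UMIs each (−0.32).

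**Figure D2:**
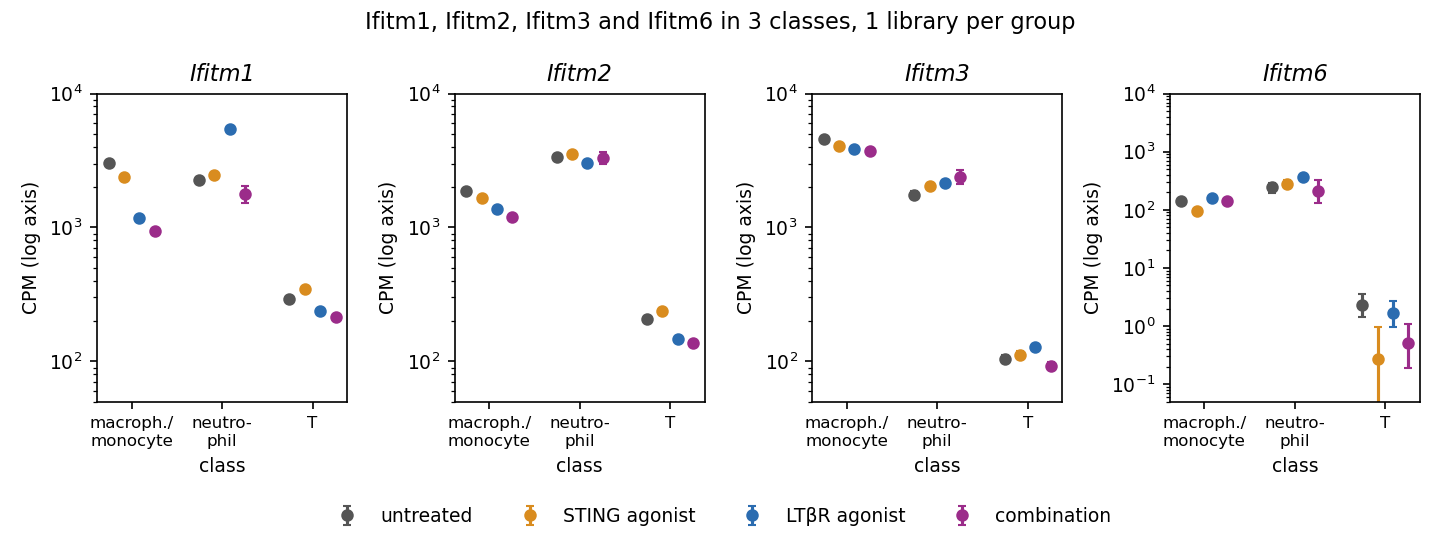
Level of Ifitm1, Ifitm2, Ifitm3 and Ifitm6 (CPM, log axis) in macrophage- or monocyte-like, neutrophil-like and T-like cells of the 4 libraries, with 95% Poisson intervals that cover counting error only. Ifitm1 goes from 3045 CPM to 942 CPM between the untreated and combination libraries in macrophage- or monocyte-like cells and is highest with LTbR agonist, at 5419 CPM, in neutrophil-like cells.

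The lower Ifitm1 level was seen both as fewer cells with the transcript and as fewer UMIs in each. With every cell thinned to 1000 UMIs, 60.5%, 55.9%, 29.5% and 24.8% of macrophage- or monocyte-like cells had an Ifitm1 UMI in the untreated, STING agonist, LTbR agonist and combination libraries. Cells with at least 1 such UMI held 4.94, 3.97, 3.27 and 2.98 of them. In gamma-delta T cells, which had the lowest level but one, the thinned share was 1.04% with libraries pooled. At full depth the macrophage- or monocyte-like shares were 81.3%, 77.2%, 49.7% and 45.5%, with class medians of 8897, 10675, 8048 and 7772 UMIs per cell. The ratio of Ifitm1 to Ifitm3, summed over the class, ran in the same order: per 100 UMIs of Ifitm3 the class held 66.1, 58.7, 30.7 and 25.4 UMIs of Ifitm1. Such a ratio of class sums mixes the level in cells with the make-up of the class.

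Sub-clusters of the class are described next. They are parts of the same cells and libraries on which the members were selected, and are not replicates. Nothing is therefore read from how many share a direction, or from the shares of genes beside them. Macrophage- or monocyte-like cells were split into 15 sub-clusters, and Ifitm1 was below untreated with LTbR agonist in 15 of 15, by at least 0.5 in 14 of them, with a median log2 ratio of −1.09. With LTbR agonist 1.98% of the 607 genes that could be compared in all 15 were below untreated in all. With the combination Ifitm1 was below untreated in 13 of the 13 sub-clusters compared (12 by at least 0.5, median −1.48), as were 2.65% of 490 genes. With STING agonist it was below in 10 of 14, of which 6 by at least 0.5, and above by that much in 1, a sub-cluster led by Tmem176b, Tmem176a and Cd209a (906 CPM untreated and 1562 CPM with STING agonist).

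The sub-clusters differed in size of the difference. The largest sub-cluster, of C1q Trem2 macrophage-like cells, whose complement and lipid-receptor genes mark tumour macrophages, stood at 4344 CPM untreated, 3291 CPM with STING agonist, 2078 CPM with LTbR agonist and 1394 CPM with the combination. A Cxcl9 monocyte-derived-like sub-cluster led by Ccl5, Cfb and Ly6i went from 3402 to 2170, 1187 and 657 CPM. The sub-cluster led by Timp1, Tgm2 and Thbs1, which could not be named, went from 1457 to 1289, 672 and 515 CPM. In each of these 3 the combination library was the lowest. The largest fall with LTbR agonist, −2.47, was in a sub-cluster led by Ccl8, Cd81 and Mrc1, at 1034, 689, 178 and 260 CPM. The smallest, −0.46, was in a Ly6c2 monocyte-like sub-cluster in which Ifitm1 was low throughout, at 125, 152, 88.0 and 71.7 CPM. Mrc1 resident macrophage-like cells stood at 1680, 245, 310 and 258 CPM, but the untreated and STING agonist libraries gave only 84 and 21 of these cells, at medians of 1678 and 1302 UMIs.

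Ifitm2 was below untreated with LTbR agonist in 13 of 15 sub-clusters, by at least 0.5 in 5, and with the combination in 14 of 14, by at least 0.5 in 8. Ifitm3 was below in 14 of 15 with LTbR agonist but by at least 0.5 in only 1 (−0.66, in a sub-cluster of C1q Trem2 macrophage-like cells of low depth), and in 11 of 14 with the combination, 2 of them by at least 0.5. In Ly6c2 monocyte-like cells Ifitm3 was about level across libraries, at 4890, 4791, 4821 and 5612 CPM (log2 ratios −0.03, −0.02 and 0.20), while Ifitm1 stood at 273, 332, 134 and 199 CPM there (0.27, −0.97 and −0.44).

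**Figure D3:**
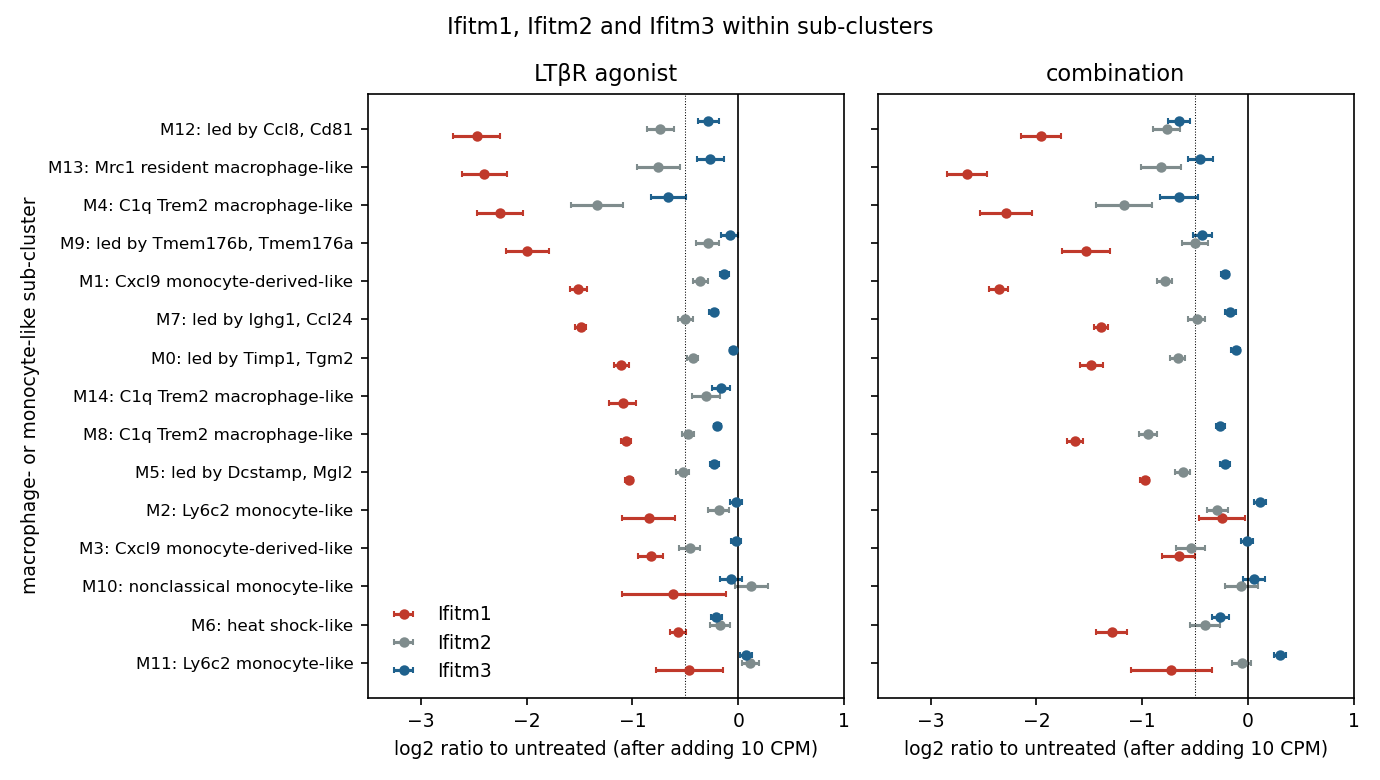
Log2 ratio to untreated of Ifitm1, Ifitm2 and Ifitm3 in each of 15 macrophage- or monocyte-like sub-clusters, for LTbR agonist and the combination, with 95% counting intervals and a dotted line at −0.5. Ifitm1 lies below 0 in every sub-cluster drawn, with medians of −1.09 and −1.48, and sub-clusters with under 50 UMIs in both libraries are not drawn.

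The make-up of the class differed between libraries as well. The largest C1q Trem2 sub-cluster was 27.6% and 25.4% of the class in the untreated and STING agonist libraries and 5.19% and 5.37% in the LTbR agonist and combination libraries. Mrc1 resident macrophage-like cells were 2.83%, 1.48%, 7.37% and 15.6%, and nonclassical monocyte-like cells 1.88%, 1.76%, 6.71% and 11.5%. Giving each sub-cluster its untreated Ifitm1 level but each library its own make-up changed the class level by a log2 ratio of −0.20 with LTbR agonist and −0.26 with the combination. Giving each sub-cluster its own level and the make-up of the untreated library left −1.14 and −1.54. The greater part of the Ifitm1 difference was thus within sub-clusters as drawn here.

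Ifitm6 behaved otherwise, and make-up and level ran in opposite directions. The make-up alone would give log2 ratios of 0.06, 0.30 and 0.40 with STING agonist, LTbR agonist and the combination. Beside the nonclassical monocyte-like cells above, the larger Ly6c2 monocyte-like sub-cluster, another high in Ifitm6, was 4.21%, 3.67%, 7.47% and 6.63% of the class. With the untreated make-up the ratios were −0.53, −0.10 and −0.51. Ifitm6 was below untreated in 10 of 11 sub-clusters with STING agonist (6 by at least 0.5), in 7 of 12 with LTbR agonist (2 by at least 0.5, and 1 above by that much), and in 9 of 12 with the combination (6 by at least 0.5). In C1q Trem2 macrophage-like cells it stood at 70.3, 36.2, 53.5 and 15.1 CPM (log2 ratios −0.80, −0.34 and −1.68), lowest with the combination. In Cxcl9 monocyte-derived-like cells it stood at 115, 56.4, 94.8 and 89.2 CPM (−0.91, −0.25 and −0.33), lowest with STING agonist. In Ly6c2 monocyte-like cells, its main site in this class, it stood at 517, 482, 699 and 601 CPM (−0.10, 0.43 and 0.21), so no lower level was seen there. The class value for the combination, near 0, thus held both a lower level in macrophage-like cells and a larger share of monocyte-like cells.

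**Figure D4:**
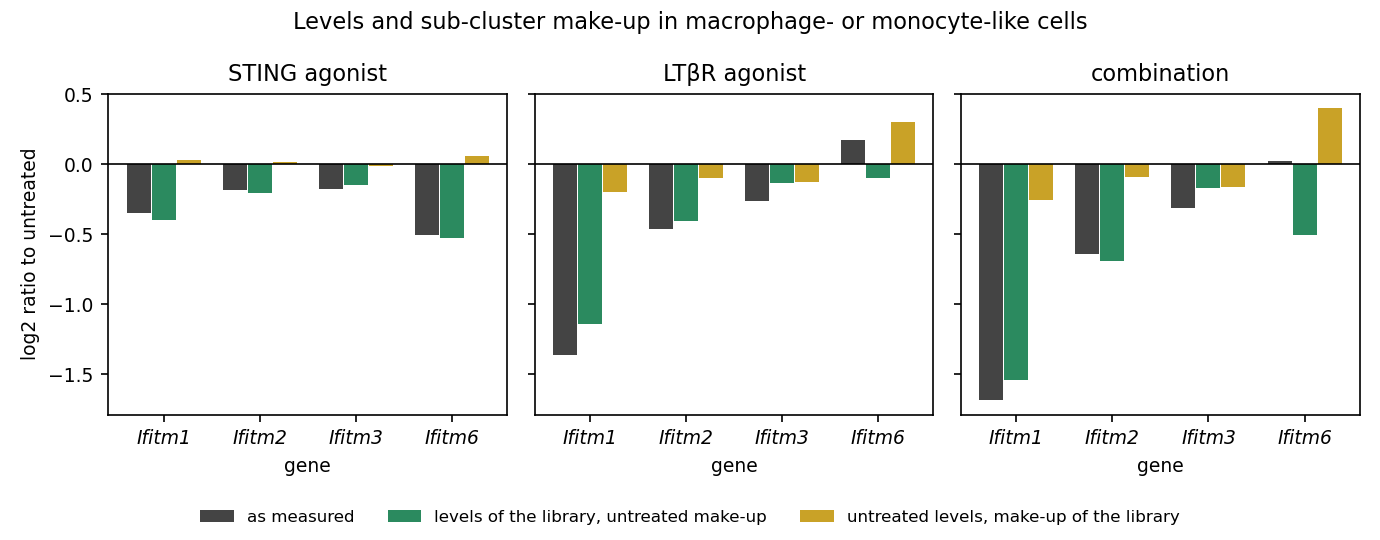
Log2 ratio to untreated of Ifitm1, Ifitm2, Ifitm3 and Ifitm6 in macrophage- or monocyte-like cells for the 3 treated libraries, as measured, with the untreated make-up of sub-clusters, and with untreated levels in the make-up of each library. For Ifitm6 with the combination the make-up alone gives 0.40, the levels alone −0.51 and the measured ratio is 0.02.

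Markers of other cells in the macrophage- or monocyte-like class were low and are given for comparison. The 10 tumour or stromal markers summed to 75.0, 69.4, 63.7 and 54.5 CPM, with all 10 above 0, the 8 neutrophil markers to 111 to 128 CPM, and the T cell markers to 14.9 to 34.4 CPM. The class's own 11 markers summed to 11650, 13517, 10329 and 11862 CPM. The part of these in the Ifitm values was not tested.

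In neutrophil-like cells, short-lived granulocytes marked by S100a8 and Csf3r, Ifitm1 differed in the other direction with LTbR agonist. It stood at 2246 CPM untreated (954 UMIs), 2460 CPM with STING agonist (1732 UMIs), 5419 CPM with LTbR agonist (3663 UMIs) and 1773 CPM with the combination (184 UMIs in 56 cells). Only the LTbR agonist library stood apart upwards, with a log2 ratio of 1.27 (1.16 to 1.37) against 0.13 with STING agonist and −0.34 (−0.57 to −0.11) with the combination. Ifitm6 stood at 242, 280, 371 and 212 CPM, with a log2 ratio of 0.60 (0.27 to 0.92) with LTbR agonist. Ifitm2 varied little, at 3340, 3537, 3003 and 3314 CPM. Ifitm3 stood at 1742, 2040, 2164 and 2389 CPM, with ratios of 0.23, 0.31 and 0.45. Ifitm10 had at most 3 UMIs in a library.

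With LTbR agonist 2 of the 4 members compared were higher in neutrophil-like cells (Ifitm1 and Ifitm6), where 10.9% of 1749 genes were, and none was lower, where 8.81% were. None passed in either direction with STING agonist (5.84% lower and 7.95% higher of 1849 genes) or with the combination (14.1% lower and 11.1% higher of 1281 genes). These background shares were larger than in the other classes, and the cells were fewer and shallower, with class medians of 1796.5 to 2323 UMIs.

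The higher Ifitm1 level with LTbR agonist was seen in each neutrophil-like sub-cluster with enough cells. In the sub-cluster led by the heat shock genes Hspa1b and Hspa1a it was 1691 CPM untreated and 6595 CPM with LTbR agonist, in that led by Cxcl10, Gbp5 and Gbp2 it was 2251 and 5128 CPM, and in that led by the granule genes Ngp, Camp, Ltf and Lcn2 it was 2538 and 5037 CPM. Of 381 genes compared in these 3, 16.0% were above untreated in all, and the sub-clusters are parts of the same libraries, not replicates. After thinning, 59.4%, 55.0%, 75.5% and 56.3% of neutrophil-like cells had an Ifitm1 UMI, with 3.64, 4.74, 7.36 and 3.37 UMIs in each such cell. Ifitm6 had enough UMIs only in the granule gene sub-cluster, at 303, 500.3, 687 and 234 CPM. Its class value with LTbR agonist turned to −0.65 as a mean of CPM per cell and to −0.14 after thinning, so its direction in neutrophil-like cells rests on how cells are weighed.

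The Ifitm1 value also rested on how neutrophils were delimited. When each cell took the class of its highest marker score in place of its cluster, the log2 ratio with LTbR agonist was 0.13, with STING agonist −0.37 and with the combination −1.28. That class held 1292 cells, of which 829 were neutrophil-like and 215 macrophage- or monocyte-like by cluster, the latter with 25.9% of its UMIs. In the cells that both definitions share, Ifitm1 stood at 2253, 2467, 5436 and 1790 CPM. In the class from clusters the 8 neutrophil markers summed to 76579, 80795, 101282 and 75155 CPM and the 11 macrophage or monocyte markers to 1043, 1098, 1093 and 1407 CPM. C1qc was at 0 with LTbR agonist, and C1qa, C1qb, Fcgr1 and Ccr2 were among those at 0 with the combination. The part of these cells in the Ifitm1 value was not tested.

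In T-like cells the members were low, and the class differences were smaller. Ifitm1 stood at 291, 346, 239 and 213 CPM (log2 ratios 0.24, −0.27 and −0.43). Ifitm2 stood at 208, 237, 147 and 138 CPM (0.18, −0.47 and −0.56, the last with an interval of −0.65 to −0.47). Both class levels were lower in the 2 libraries with LTbR agonist. For Ifitm1 with LTbR agonist the make-up of the class alone gave −0.25, and with the untreated make-up the ratio turned to 0.058, with 4 of 9 sub-clusters below untreated and 5 above. With the combination Ifitm1 was below in 8 of 8 sub-clusters, and the untreated make-up left −0.39. These sub-clusters are parts of the same libraries, not replicates. The share of all genes with a common direction is not given for them, so nothing is read from these counts. Ifitm3 stood at 104, 112, 129 and 93.2 CPM (0.10, 0.28 and −0.14), with no common direction. Ifitm6 had 22, 2, 17 and 6 UMIs and was not compared.

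Ifitm10, found mainly in lymphocytes in these data, stood at 37.6, 35.8, 20.5 and 23.5 CPM, from 358, 265, 209 and 277 UMIs. It was lower in both libraries that received LTbR agonist, with log2 ratios of −0.05, −0.65 (−0.82 to −0.47) and −0.51 (−0.68 to −0.34). The share of T-like cells with an Ifitm10 UMI was 17.7%, 17.2%, 9.45% and 11.6%, at class medians of 5129, 5346, 4475 and 5258 UMIs per cell. Thinned to 1000 UMIs the shares were 3.19%, 2.87%, 2.32% and 2.12%. On thinned cells the log2 ratios were −0.35 with LTbR agonist and −0.39 with the combination, short of 0.5, and with a pseudocount of 50 CPM they were −0.31 and −0.25.

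Of the 4 members compared in T-like cells, 1 was lower with LTbR agonist (Ifitm10, against 1.25% of 9883 genes) and 2 with the combination (Ifitm2 and Ifitm10, against 0.871% of 9992 genes). None was lower with STING agonist (0.914% of 9624 genes) and none was higher in any library (1.26%, 1.00% and 0.851% of genes with STING agonist, LTbR agonist and the combination). The Ifitm1 values depended on the definition of the class: with classes from marker scores its log2 ratios were −0.58, −0.91 and −1.23. Of the 6105 cells so classed, 89.6% were T-like by cluster and 0.622% macrophage- or monocyte-like. In the cells both definitions share Ifitm1 stood at 298, 380, 255 and 227.4 CPM. In the class from clusters the 11 macrophage or monocyte markers, all above 0, summed to 1085, 1068, 1034 and 824 CPM, and the part of these transcripts in the Ifitm values of T cells was not tested.

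Subsets of T cells differed in the members they carried and in how these varied. CD8 cells with granzymes C to F, the cytotoxic effectors, had Ifitm1 at 762, 796, 896 and 666 CPM, with no library far from the others. Exhausted CD8-like cells, which carry inhibitory receptors, had 215, 341, 136 and 194 CPM (log2 ratios 0.64, −0.62 and −0.14). Gzmk memory-like CD8 cells had 352, 191, 762 and 234 CPM (−0.85, 1.09 and −0.57), highest with LTbR agonist. CD4 helper-like cells had 216, 376, 166 and 89.2 CPM (0.77, −0.36 and −1.19), highest with STING agonist. Their Ifitm2, at 435, 627, 282 and 247 CPM (0.52, −0.61 and −0.79), ran in the same order. The highest Ifitm1 level was thus with LTbR agonist in the granzyme C to F and Gzmk CD8 subsets and with STING agonist in exhausted CD8-like and CD4 helper-like cells.

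Regulatory-like T cells had Ifitm1 at 125, 15.6, 47.3 and 11.9 CPM. The log2 ratios were −2.40, −1.24 and −2.62, and shrank to −0.12 with STING agonist and −1.004 with the combination on thinned cells. The 88 untreated UMIs came from 15 of 171 cells. Thinned, 1.86%, 4.04%, 0.909% and 2.29% of cells had an Ifitm1 UMI, from 3, 4, 3 and 4 cells. The share was thus not lower with STING agonist or the combination. In regulatory-like T cells the macrophage gene Lyz2 stood at 104, 17.9, 53.5 and 81.5 CPM and the 3 C1q genes summed to 25.6, 22.3, 21.3 and 21.9 CPM. The part of these genes' transcripts in the Ifitm1 value was not tested.

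At full depth a lower Ifitm10 level with LTbR agonist was seen in 2 CD8 subsets, and it was not resolved in the Gzmk CD8 subset. On thinned cells neither of the 2 kept that pattern. Exhausted CD8-like cells had 45.3, 39.0, 18.8 and 25.1 CPM from 149, 60, 44 and 75 UMIs, with log2 ratios of −0.17, −0.94 (−1.28 to −0.59) and −0.66 (−0.96 to −0.35). Thinned, 4.03%, 2.44%, 2.33% and 2.26% of them had an Ifitm10 UMI, from 18, 5, 8 and 9 cells. The STING agonist library was then about as low as both with LTbR agonist. CD8 cells with granzymes C to F had 42.2, 46.1, 20.2 and 22.2 CPM from 67, 72, 21 and 50 UMIs (0.10, −0.79 and −0.70), although on thinned cells, with 2 to 5 cells with a UMI per library, these turned to 0.82 with LTbR agonist and 0.63 with the combination. Gzmk memory-like CD8 cells had 50.1, 41.4, 33.8 and 47.8 CPM from 38, 38, 24 and 36 UMIs, too few to be compared. T cells with Ly49 receptors were about level at 59.1, 65.2, 55.6 and 62.5 CPM (0.12, −0.08 and 0.07). NK-like cells had 84.4, 84.7, 67.8 and 73.9 CPM. Whether the CD8 subsets differ from the Ly49-receptor and NK-like cells in this was not tested.

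**Figure D5:**
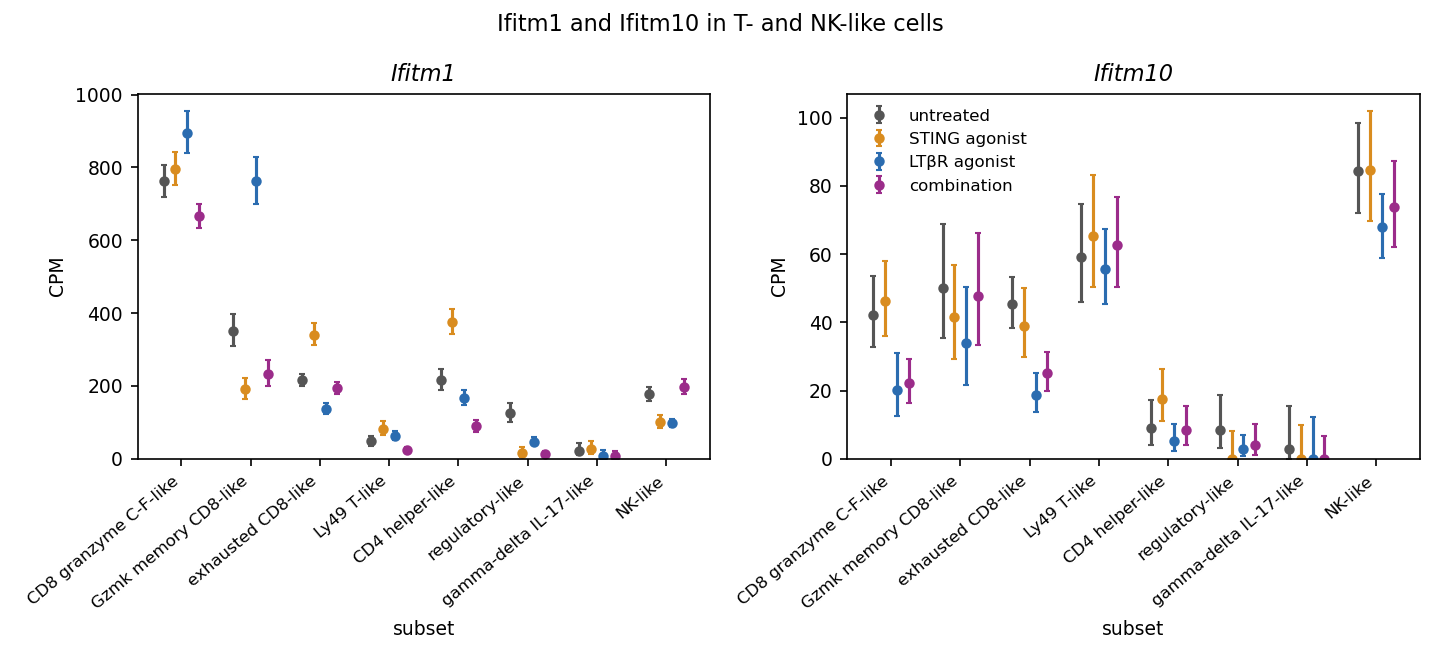
Level of Ifitm1 and Ifitm10 (CPM) in 7 T cell subsets and NK-like cells by library, with 95% Poisson intervals that cover counting error only. At full depth, Ifitm10 is lower in the LTbR agonist and combination libraries in exhausted and granzyme C to F CD8-like cells (20.2 and 22.2 CPM against 42.2 CPM untreated in the latter) and about level in T cells with Ly49 receptors.

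The 2-by-2 design allows the combination to be set against the sum of the log2 ratios of the single agonists. In macrophage- or monocyte-like cells the sum for Ifitm1 was −1.71 and the combination −1.68, a departure of 0.03 (−0.01 to 0.06). For Ifitm2 the departure was −0.00 (−0.03 to 0.03), for Ifitm3 0.13 (0.11 to 0.15) and for Ifitm6 0.35 (0.24 to 0.46). In neutrophil-like cells the sum for Ifitm1 was 1.40 and the combination −0.34, a departure of −1.738 (−1.986 to −1.496), and for Ifitm6 the departure was −0.98 (−1.72 to −0.29). In T-like cells the departure was −0.40 (−0.51 to −0.29) for Ifitm1 and −0.27 (−0.40 to −0.14) for Ifitm2. It was −0.52 (−0.69 to −0.36) for Ifitm3 and 0.19 (−0.07 to 0.45) for Ifitm10 there. Within the macrophage- or monocyte-like class the departure of Ifitm1 varied, from −0.65 (−0.83 to −0.47) in heat shock macrophage-like cells to 2.47 (1.84 to 3.16) in Mrc1 resident macrophage-like cells, the latter with 22 UMIs with STING agonist, and for Ifitm2 it was −0.17 in C1q Trem2 and 1.07 in Mrc1 resident macrophage-like cells. In dendritic-like cells it was −0.51 for Ifitm1. The combination was thus close to the sum for Ifitm1 and Ifitm2 over the macrophage- or monocyte-like class but not in each of its subsets, and far below it for Ifitm1 in neutrophil-like cells, though with 1 library for each treatment the departures carry no replicate error.

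Other interferon-related genes were followed beside the members, in tumours taken days after the last agonist dose. In macrophage- or monocyte-like cells 24 type I interferon-stimulated genes were compared, and none differed by 0.5 with STING agonist or LTbR agonist, with median log2 ratios of −0.10 and −0.17. With the combination 1 was lower, Rsad2, which encodes the antiviral protein viperin (404 to 275 CPM, log2 ratio −0.54), at a median of −0.23. The median of all genes compared in this class was 0.01, 0.01 and 0.03. Of 10 interferon-gamma-induced genes 3 were higher with STING agonist (Socs1 0.79, Cxcl9 0.70 and Iigp1 0.64, median of the list 0.39). With LTbR agonist 4 were lower (Gbp2 −0.89, Gbp4 −0.80, Iigp1 −0.63 and Gbp5 −0.53, median −0.41), and with the combination 2 were higher (Socs1 0.75 and Cxcl9 0.64, median 0.12). None of 12 genes for interferon receptors and their signalling differed by 0.5 in any of the 3 libraries, and none of 4 genes for proteins that act on IFITM3, Zdhhc20, Nedd4, Zmpste24 and Vcp. Ifitm1 had a larger negative log2 ratio with the combination than any of these listed genes. It was selected on values of these same cells, so nothing is read from this rank.

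In neutrophil-like cells the lists differed in direction. The median of all genes compared was −0.017, −0.0074 and 0.010 with STING agonist, LTbR agonist and the combination, and the shares of all genes past 0.5 were 5.84%, 8.81% and 14.1% lower and 7.95%, 10.9% and 11.1% higher. With STING agonist 8 of 21 type I interferon-stimulated genes were higher (median 0.45), among them Xaf1 (1.07) and Zbp1 (0.81). With LTbR agonist 9 of 20 were higher (median 0.41), among them Ifit1 (1.00) and Usp18 (0.97), and Irf7 was lower (−0.68). With the combination 9 of 14 were higher (median 0.63). Interferon-gamma-induced genes split between the treatments, with 5 of 6 higher with STING agonist (median 0.62), 4 of 6 higher with the combination (median 0.52) and 4 of 6 lower with LTbR agonist (median −0.79), the last including Cxcl10 (−1.21) and Gbp2 (−1.16). Of the receptor and signalling genes none of 8 differed with STING agonist, 2 of 8 were lower with LTbR agonist, among them Irf1 (−0.66), and 2 of 6 with the combination (Jak2 and Ifngr1), at medians of 0.12, −0.18 and −0.16. Ifitm1 was thus higher with LTbR agonist in the class in which Irf1 was lower.

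In T-like cells 2 of 22 type I interferon-stimulated genes were higher with STING agonist (Rsad2 0.69 and Ifit1 0.57, median 0.22), 2 with LTbR agonist (Rsad2 0.65 and Slfn5, median 0.17) and none with the combination (median −0.19). Of 8 interferon-gamma-induced genes 2 were higher with STING agonist (Socs1 0.59 and Gbp2 0.52) and none with LTbR agonist or the combination. Of 12 receptor and signalling genes 1 was higher with the combination (Ifngr2 0.51), and none of the 4 genes acting on IFITM3 differed.

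Dendritic-like cells held the most Ifitm1 of the ranked subsets with libraries pooled, although neutrophil-like cells stood above them with LTbR agonist. Ifitm1 stood in dendritic-like cells at 7461, 6972, 4956 and 3249 CPM, with log2 ratios of −0.10, −0.59 and −1.20, and Ifitm6 at 566, 406, 343 and 172 CPM, with −0.47, −0.71 and −1.67. Lower by at least 0.5 were 1.15% of 8466 genes with LTbR agonist and 2.92% of 8431 genes with the combination. Ifitm2 stood at 3072, 3039, 2218 and 1770 CPM and Ifitm3 at 4402, 4595, 3513 and 2909 CPM. All 4 were lowest in the combination library, and Ifitm6, unlike in macrophage- or monocyte-like cells, was also lower with LTbR agonist.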

How the data were processed

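The authors aligned the 5′ single-cell reads and deposited a filtered matrix of raw UMI counts per gene and barcode for 4 libraries, made with Cell Ranger 7.1.0 and the mm10 build per the submitters' processing notes. Barcodes were assigned to libraries by their suffix, which the labels state. The study describes 2 single-cell experiments on pooled tumours, and which of them gave these libraries is not given in the sources used here. The libraries held 32529174 to 60770280 UMIs in 3955 to 7824 barcodes. Cells with 300 to 5000 genes and at most 6% mitochondrial UMIs were kept, as in the study's methods. Cells of all libraries were clustered together with Scanpy 1.11.5 (2000 variable genes, 30 principal components, 20 neighbours, Leiden resolution 1, 24 clusters), leaving out 7 Ifitm genes and 635 V(D)J segment genes. Ifitm5 and Ifitm7 are also in the matrix and were not followed. Clusters were named "-like" from marker lists where at least 3 markers were detected in 10% of cells and raised, and those naming thresholds were set after the clusters were seen. Cells with high Scrublet doublet scores were kept. Clusters with both lymphoid and myeloid markers (662 and 267 cells) were left without a class. So were neutrophil sub-clusters of 75 and 77 cells that carried markers of other cells. Counted after this, at most 0.83% of the cells of a class and library scored over 0.2. The score thus marked few cells and was a weak check for doublets.

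UMI counts were summed per library and class or subset and scaled to CPM. Log2 ratios to untreated were taken after adding 10 CPM, with 95% intervals from exact Poisson limits (shares, Clopper-Pearson). With 1 library per group there was no test. The ratio step was tested on simulated data. A gene was compared where 1 of the 2 libraries held at least 50 UMIs. Named subsets of at least 50 cells were ranked, with the dendritic-like, neutrophil-like, NK-like and B or plasma-like classes each taken whole. Genes most like a member were the 4 with the highest Spearman correlation over subsets among genes with at least 1000 UMIs. The members and the gene lists were chosen with earlier results of these data known. Alternatives were other pseudocounts (1 and 50), centring, means per cell, thinning to 1000 UMIs, no cell filter, other resolutions (0.5 and 2), classes from marker scores, removal of high doublet scores or of the 10 cells richest in the gene, and the make-up of the untreated library. Gene positions are from the GRCm38 annotation and promoter windows from RefSeq on GRCm38.p6, in which all 5 members matched. The 60-base stretches of annotated transcripts shared between members were 10 between Ifitm2 and Ifitm3, 5 between Ifitm1 and Ifitm3 and 0 for all other pairs, so reads in those stretches could be lost or split. Ifitm2 and Ifitm10 overlap another annotated gene on the same strand that is not in the matrix. Some listed genes are counted but not named here. Python 3.11.15, NumPy 2.4.6, SciPy 1.17.1, pandas 2.3.3, leidenalg 0.10.2 and Matplotlib 3.10.9 were used.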

Additional observations from a re-analysis of the deposited data

Results flagged for a closer look

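Ifitm1 differed from untreated in opposite directions in 2 cell classes of the same library. With LTbR agonist its log2 ratio to untreated was −1.36 in macrophage- or monocyte-like cells and 1.27 in neutrophil-like cells, each past 0.5. The difference between the classes was not tested, since each treatment has 1 library.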

How the results depend on the processing

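No paired analysis was possible because each treatment has 1 library. In macrophage- or monocyte-like cells, 112 of 117 alternative values of Ifitm1, Ifitm3 and Ifitm6 stayed on the same side of 0.5, 109 kept their direction and none of those past 0.5 reversed. The values that left the counting interval follow in the order STING agonist, LTbR agonist and combination where 3 are given. Means of CPM per cell gave Ifitm1 −0.38, −1.62 and −1.97 and Ifitm3 −0.16, −0.31 and −0.40. Thinned cells gave Ifitm1 −0.43, −1.62 and −2.002, Ifitm3 −0.21, −0.33 and −0.41 and Ifitm6 −0.32, 0.40 and 0.11. Without the 10 richest cells Ifitm1 was −0.39, −1.44 and −1.82, and Ifitm6 −0.59 with STING agonist. The untreated make-up gave Ifitm1 −0.40, −1.14 and −1.54, Ifitm3 −0.15, −0.13 and −0.17, and Ifitm6 −0.10 with LTbR agonist and −0.51 with the combination. Marker-score classes gave Ifitm1 −0.37 with STING agonist and −1.29 with LTbR agonist, Ifitm3 −0.24 with LTbR agonist and −0.33 with the combination, and Ifitm6 −0.092 with the combination. A pseudocount of 50 CPM gave Ifitm1 −1.33 with LTbR agonist and −1.64 with the combination and Ifitm6 −0.38 with STING agonist. No cell filter gave Ifitm1 −1.32 with LTbR agonist, Ifitm3 −0.34 and Ifitm6 −0.053 with the combination. Resolution 2 gave Ifitm1 −1.39 with LTbR agonist, and resolution 0.5 gave, with LTbR agonist and the combination, Ifitm1 −1.22 and −1.42, Ifitm3 −0.24 and −0.22 and Ifitm6 0.041 and −0.065. Centring gave −1.71 for Ifitm1 with the combination and −0.28 and −0.35 for Ifitm3 with LTbR agonist and the combination. Leaving out 2 sub-clusters of low depth, chosen after seeing the data, gave with LTbR agonist and the combination Ifitm1 −1.32 and −1.57, Ifitm3 −0.24 and −0.24, and Ifitm6 0.14 with the combination.

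In neutrophil-like cells 80 of 84 alternative values stayed on the same side of 0.5, and Ifitm6 with LTbR agonist reversed, to −0.65 as a mean per cell and −0.14 thinned. In T-like cells 70 of 84 stayed. In named subsets 819 of 882 stayed, and 5 reversed, all on thinned cells: Ifitm10 in granzyme C to F CD8 cells (0.82 with LTbR agonist, 0.63 with the combination), Ifitm3 in Gzmk CD8 cells with LTbR agonist (−0.016) and Ifitm2 in cycling T cells (−0.11 with LTbR agonist, −0.86 with the combination). The causes were not tested. The background shares with at least 200 UMIs differed in neutrophil-like cells: 1.47% lower and 8.26% higher with STING agonist, 5.78% and 12.6% with LTbR agonist, and 9.23% and 5.54% with the combination. The number of cells limits the neutrophil-like combination library most, with 184 UMIs of Ifitm1.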

Other observations

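NK-like cells, which had the highest Ifitm10 level, held Ifitm1 at 178 CPM untreated, 101 CPM with STING agonist, 97.5 CPM with LTbR agonist and 197 CPM with the combination. Per 100 UMIs of Ifitm3, dendritic-like cells held 169.5, 152, 141 and 112 UMIs of Ifitm1 in the untreated, STING agonist, LTbR agonist and combination libraries, and neutrophil-like cells held 129, 121, 250.4 and 74.2. In gamma-delta T cells, with libraries pooled, there were 54.3 UMIs of Ifitm1 per 100 of Ifitm3.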
